A study of Mus musculus with 6 samples.

Results

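Serine synthesis and folate-bound carbon metabolism were followed through 10 genes, matched once each by symbol among the 54146 genes of the count files. They were Phgdh, Psat1 and Psph of serine synthesis, Shmt2, Mthfd2, Mthfd2l, Mthfd1l and Aldh1l2 of the mitochondrial folate pathway, and Shmt1 and Mthfd1 of the cytosolic one. The set was chosen by pathway, with earlier results of the same contrast known, so the differences between groups given for these genes are a description of these libraries. No support is drawn from the choice itself.

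Messenger RNA was sequenced from whole kidneys of mice aged 84 days (12 weeks), strain B6C3F1/J, in 3 Tfam f/f-labelled libraries and 3 labelled KspCre Tfam f/f. Every animal carries floxed Tfam alleles, per the labels, and the second label adds a Cre transgene driven by the promoter of Ksp-cadherin, a gene of tubule epithelial cells; the controls lack Cre, per the series' design text. Whole kidney also holds cells in which that promoter is silent. Sex, and whether each library is a different animal, are not stated in the sources used here.

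Serine is made from the glycolytic intermediate 3-phosphoglycerate in the cytosol by PHGDH, PSAT1 and PSPH in turn. Serine hydroxymethyltransferase then moves a carbon unit from serine to folate, giving glycine, with SHMT1 in the cytosol and SHMT2 in mitochondria. In mitochondria MTHFD2 or MTHFD2L oxidises this unit, MTHFD1L releases it as formate and ALDH1L2 oxidises it to carbon dioxide, while in the cytosol MTHFD1 interconverts formate and the folate-bound units used for purine, thymidylate and methionine synthesis. In muscle and cultured cells with failing mitochondrial DNA expression, induction of several of these genes through the transcription factor ATF4 is well known.

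The labels need a caution that bears on every direction below. Tfam had 30.3, 33.6 and 23.2 normalized CPM (counts scaled to library size) in the Tfam f/f-labelled libraries and 63.1, 63.4 and 61.3 in the KspCre Tfam f/f-labelled ones, which is the reverse of what the labels imply. The names of the deposited count tables also carry WT for the KspCre Tfam f/f-labelled libraries. Mitochondrially encoded mRNAs made up 2.39% to 5.68% of counts in the former and 10.98% to 11.05% in the latter. Groups are therefore named only by their labels. Library totals ran from 19024208 to 34821537 counts under the first label and from 30348281 to 48899266 under the second. All 10 genes passed the filter on low counts, and the lowest single count among them was 78.

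Promoter sequences are shown for Mthfd2, Phgdh and Mthfd1l, which had the widest differences among the genes with a sequence, and for Shmt2, which went the other way. The table of RefSeq promoters (GRCm38.p6, the same build as mm10) held 10 windows for 9 of the 10 genes, each from 250 bases before to 50 after an annotated start. Aldh1l2 had no entry. Each is given 5′ to 3′ on the gene's strand, and capitals mark the CCAAT box on either strand.
Mthfd2, chr6:83317555-83317854, minus strand: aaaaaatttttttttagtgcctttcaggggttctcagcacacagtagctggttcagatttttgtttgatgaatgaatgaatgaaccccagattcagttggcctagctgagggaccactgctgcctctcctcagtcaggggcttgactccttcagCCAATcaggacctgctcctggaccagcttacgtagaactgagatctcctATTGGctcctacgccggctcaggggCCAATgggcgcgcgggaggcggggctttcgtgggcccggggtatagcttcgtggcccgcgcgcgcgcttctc
Phgdh, chr3:98339920-98340219, minus strand: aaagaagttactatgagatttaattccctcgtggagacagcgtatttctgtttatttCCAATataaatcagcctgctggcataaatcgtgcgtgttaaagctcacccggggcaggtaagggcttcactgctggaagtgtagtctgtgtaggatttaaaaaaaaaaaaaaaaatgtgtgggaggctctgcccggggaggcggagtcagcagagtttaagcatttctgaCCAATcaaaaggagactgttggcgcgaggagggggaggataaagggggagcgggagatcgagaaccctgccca
Mthfd1l, chr10:3972825-3973124, plus strand: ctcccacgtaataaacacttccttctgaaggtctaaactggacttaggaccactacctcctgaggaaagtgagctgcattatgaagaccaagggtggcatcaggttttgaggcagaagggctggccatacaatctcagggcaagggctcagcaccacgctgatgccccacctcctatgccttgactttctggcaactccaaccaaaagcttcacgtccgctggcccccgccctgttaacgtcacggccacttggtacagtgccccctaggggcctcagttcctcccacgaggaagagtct
Shmt2, chr10:127522395-127522694, minus strand: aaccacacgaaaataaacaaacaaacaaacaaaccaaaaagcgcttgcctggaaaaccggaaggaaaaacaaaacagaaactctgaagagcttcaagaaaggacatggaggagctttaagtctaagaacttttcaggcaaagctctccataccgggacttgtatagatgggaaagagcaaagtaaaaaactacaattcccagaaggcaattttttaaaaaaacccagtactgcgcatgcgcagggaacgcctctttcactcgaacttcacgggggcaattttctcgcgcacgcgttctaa

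The letters TGATGNAA, a composite element known to bind ATF4 with C/EBP proteins, were searched on both strands and occurred in 0 of the 10 windows, against 3.97% of all 32851 windows in the table. The E-box CACGTG, which reads the same on both strands, also occurred in 0 of 10, against 7.15% of all. These absences concern only the letters in these windows and say nothing of the factors. CCAAT, a motif added after the sequences had been read, occurred in 6 of the 10 windows, against 37.4% of all. Mthfd2 had 3 matches, starting 96, 47 and 22 bases before the annotated start, and the upstream of the 2 Psat1 windows also had 3. Phgdh and Psph had 2 each, and Shmt1 and Mthfd1 had 1 each. The windows of Mthfd1l, Mthfd2l and Shmt2 and the other Psat1 window had 0. Windows with and without a match were thus found among genes of either direction.

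Of the 10 genes, 6 were higher in the Tfam f/f-labelled libraries, 2 were lower there and 2 were not called. A call means an adjusted p below 0.05 in edgeR's quasi-likelihood test, with Benjamini-Hochberg adjustment over all 17308 genes tested. Among all of these genes 24.9% were higher in the Tfam f/f-labelled libraries, 21.3% were lower there, and 46.2% were called in either direction. In 8 of the 10 genes the groups did not overlap, and the same held for 61.9% of all genes tested. The rule that set this gene list rests on the same contrast, so nothing is read from the counts.

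**Figure D1:**
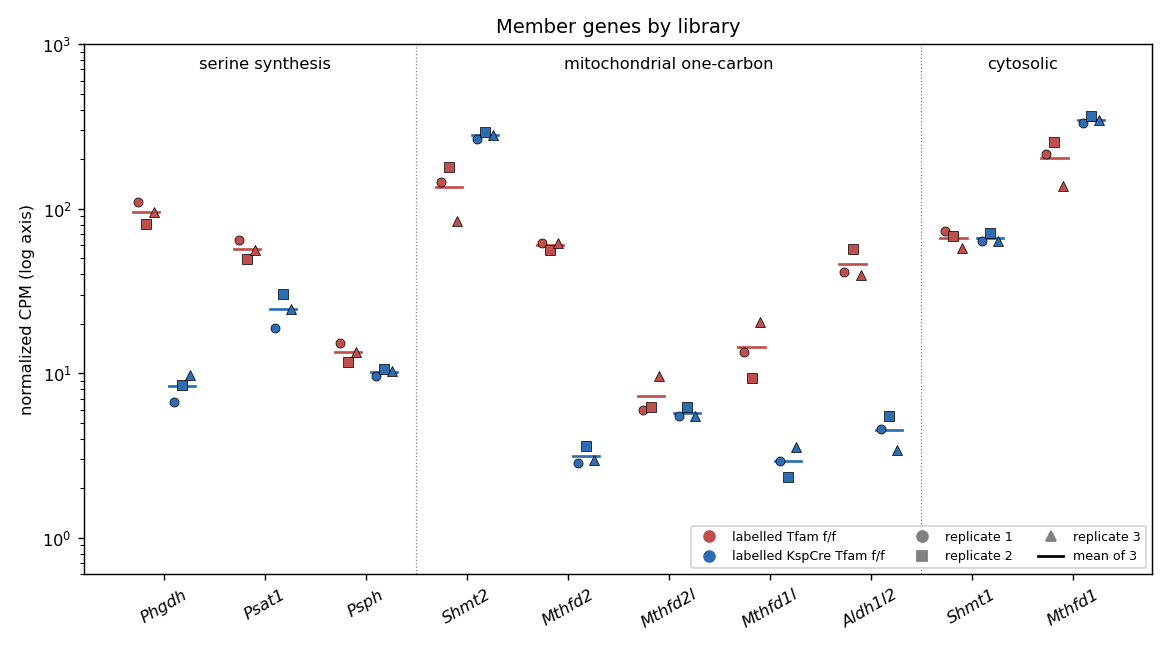
Normalized CPM of the 10 genes on a log axis, 1 point per library, with the mean of the 3 libraries of each label as a bar and the marker shape giving the replicate number. Phgdh, Mthfd2, Mthfd1l and Aldh1l2 are separated widely, Shmt2 and Mthfd1 lie lower under the label Tfam f/f, and the groups overlap for Mthfd2l and Shmt1.

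Within serine synthesis the difference shrank from the first enzyme to the last. Phgdh (chromosome 3, 98313170 to 98339990, mm10) encodes phosphoglycerate dehydrogenase, which commits 3-phosphoglycerate to serine. It had 110.1, 81.1 and 95.8 normalized CPM in the Tfam f/f-labelled libraries, and 6.73, 8.55 and 9.80 in the KspCre Tfam f/f-labelled ones. The lowest library of the first label stood far above the highest of the second. Phgdh was 11.5-fold higher under the label Tfam f/f (log2 fold change -3.52, labelled KspCre Tfam f/f minus labelled Tfam f/f as in all that follow, SE 0.18, adjusted p = 3.3e-05 by edgeR). A copy named as a pseudogene, Phgdh-ps1, is annotated, and how reads that fit both were counted is not given in the sources used here.

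Psat1 (chromosome 19, 15904678 to 15947337) encodes phosphoserine aminotransferase, the second enzyme. Its values were 64.7, 49.4 and 55.9 normalized CPM under the label Tfam f/f and 18.9, 30.3 and 24.7 under KspCre Tfam f/f, again without overlap. The difference was 2.30-fold (log2 fold change -1.20, SE 0.18, adjusted p = 0.00228 by edgeR). Psph (chromosome 5, 129765558 to 129787449) encodes phosphoserine phosphatase, the last step. It had 15.3, 11.7 and 13.5 normalized CPM under the label Tfam f/f and 9.57, 10.6 and 10.3 under KspCre Tfam f/f, so the groups did not overlap, but their nearest libraries were closer together than any pair under the first label. The 1.33-fold difference was called narrowly (log2 fold change -0.41, SE 0.14, adjusted p = 0.0422 by edgeR), and only 6 of 16 alternative settings kept the call. Leaving out a library ended it in 5 of 6 cases, with an adjusted p of 0.1102 without Tfam f/f-labelled replicate 1, 0.0559 without replicate 3, and 0.152, 0.104 and 0.122 without KspCre Tfam f/f-labelled replicates 1, 2 and 3 (range over all alternatives 0.00315 to 0.152). In GENCODE M21, 10.4% of Psph exon bases overlap Cct6a on the other strand, and the strand setting of the counting is not given.

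The mitochondrial folate enzymes did not move as a unit. Mthfd2, Aldh1l2 and Mthfd1l were higher in the Tfam f/f-labelled libraries, Shmt2 was lower, and Mthfd2l was not called. Mthfd2 (chromosome 6, 83305691 to 83325908) encodes the dehydrogenase and cyclohydrolase that is low in most adult tissues. Its normalized CPM was 61.97, 56.1 and 61.8 under the label Tfam f/f and 2.84, 3.62 and 2.97 under KspCre Tfam f/f. Both groups were tight, and this was the widest difference of the set, 19.0-fold (log2 fold change -4.25, SE 0.13, adjusted p = 5.77e-06 by edgeR). Only 0.971% of all tested genes had a larger difference in either direction.

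Aldh1l2 (chromosome 10, 83487450 to 83534140), the mitochondrial formyltetrahydrofolate dehydrogenase, had 41.1, 56.7 and 39.7 normalized CPM under the label Tfam f/f. Under KspCre Tfam f/f it had 4.60, 5.53 and 3.43, all far below. The difference was 10.1-fold (log2 fold change -3.33, SE 0.22, adjusted p = 8.83e-05 by edgeR). In the annotation 14.1% of its exon bases lie opposite exons of D10Wsu102e, so a part of its counts is uncertain. Mthfd1l (chromosome 10, 3973118 to 4167081) encodes the synthetase that releases formate from mitochondria. It had 13.5, 9.40 and 20.4 normalized CPM against 2.93, 2.34 and 3.58. The groups did not overlap, although the Tfam f/f-labelled libraries differed widely among themselves. Mthfd1l was 4.91-fold higher there (log2 fold change -2.29, SE 0.31, adjusted p = 0.00147 by edgeR).

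Shmt2 (chromosome 10, 127517123 to 127522444), which feeds serine into this pathway, went the other way. Its normalized CPM was 145, 178 and 83.6 under the label Tfam f/f and 265, 294 and 281 under KspCre Tfam f/f. Replicate 3 of the first label was lowest, and no library of that label reached the second group. Shmt2 was 2.06-fold lower under the label Tfam f/f (log2 fold change 1.04, SE 0.26, adjusted p = 0.0133 by edgeR). Mthfd2l (chromosome 5, 90931117 to 91021368), a close relative of Mthfd2, had 6.02, 6.21 and 9.56 normalized CPM against 5.51, 6.20 and 5.53, and the groups overlapped. Its log2 fold change of -0.33 had a 95% interval from -0.82 to 0.15 (adjusted p = 0.224 by edgeR), which spans from no change to a moderate one.

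Of the cytosolic folate enzymes, Mthfd1 was called and Shmt1 was not. Shmt1 (chromosome 11, 60788104 to 60811718), the cytosolic counterpart of Shmt2, had 73.3, 68.6 and 57.7 normalized CPM under the label Tfam f/f and 63.3, 71.5 and 63.6 under KspCre Tfam f/f. The groups covered the same range. In the annotation 4.74% of its exon bases lie opposite Smcr8. Its log2 fold change of -0.01 had a 95% interval from -0.27 to 0.26 (adjusted p = 0.958 by edgeR). Mthfd1 (chromosome 12, 76255298 to 76319803), the trifunctional cytosolic enzyme, had 214, 255 and 137 normalized CPM against 332, 365 and 344. It was 1.72-fold lower under the label Tfam f/f (log2 fold change 0.78, SE 0.22, adjusted p = 0.0237 by edgeR). That call was lost without Tfam f/f-labelled replicate 1 (adjusted p = 0.0671) and without KspCre Tfam f/f-labelled replicate 1, 2 or 3 (0.0613, 0.0776 and 0.0679), while the log2 fold change stayed between 0.75 and 0.83 in those fits (range of adjusted p over all alternatives 0.00252 to 0.1102).

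**Figure D2:**
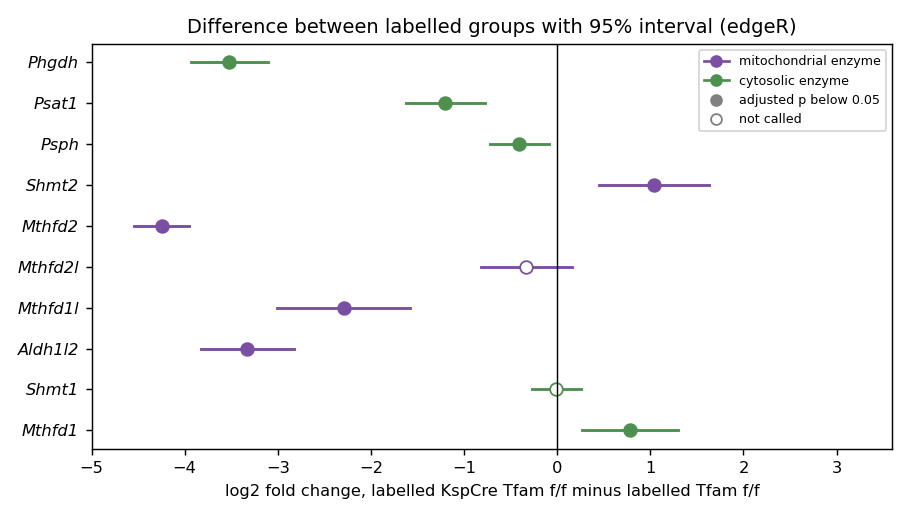
Log2 fold change of each gene, labelled KspCre Tfam f/f minus labelled Tfam f/f, with its 95% interval from edgeR; colours separate mitochondrial from cytosolic enzymes and open circles were not called. Mitochondrial enzymes lie on both sides of 0, from -4.25 for Mthfd2 to 1.04 for Shmt2, and so do cytosolic ones, from -3.52 for Phgdh to 0.78 for Mthfd1.

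Among these genes, both directions thus occurred in either compartment. Of the 5 mitochondrial enzymes, 3 were higher and 1 lower in the Tfam f/f-labelled libraries, with a median log2 fold change of -2.29. Of the cytosolic folate enzymes, 1 of 2 was lower there, and the 3 serine synthesis enzymes, also cytosolic, were all higher, with a median of -1.20. The median over all tested genes was -0.03, and 24.9% of them were higher and 21.3% lower in the Tfam f/f-labelled libraries. The gene list rests on the same contrast, so these counts are a description.

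Ratios of a mitochondrial enzyme to its counterpart within a library do not depend on how libraries are scaled. Counts were divided by exon length for these ratios, so that levels of different genes could be set side by side. Mthfd2 stood at 0.369, 0.280 and 0.573 of Mthfd1 in the Tfam f/f-labelled libraries and at 0.0109, 0.0127 and 0.0111 in the KspCre Tfam f/f-labelled ones. The ratio was thus 33.8-fold higher under the first label. For Mthfd1l over Mthfd1 the ratio was 8.35-fold higher, for Mthfd2l over Mthfd1 2.19-fold, and for Aldh1l2 over its cytosolic relative Aldh1l1 21.1-fold. The 2 genes of serine hydroxymethyltransferase showed the opposite. Shmt2 stood at 2.48, 3.25 and 1.81 times Shmt1 under the label Tfam f/f and at 5.22, 5.13 and 5.53 times under KspCre Tfam f/f, a 2.17-fold lower ratio under the first label. All 7 ratios computed were separated without overlap, and each gave p = 0.1 in a two-sided exact permutation test, adjusted p = 0.1 over the 7, which is the smallest that 3 against 3 libraries allow. Among all single genes tested, 61.9% were separated too, and the share among other gene pairs was not computed, so nothing is read from this count. Mthfd2l itself overlapped between the groups and was not called, whereas its partner Mthfd1 was lower under the label Tfam f/f.

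**Figure D3:**
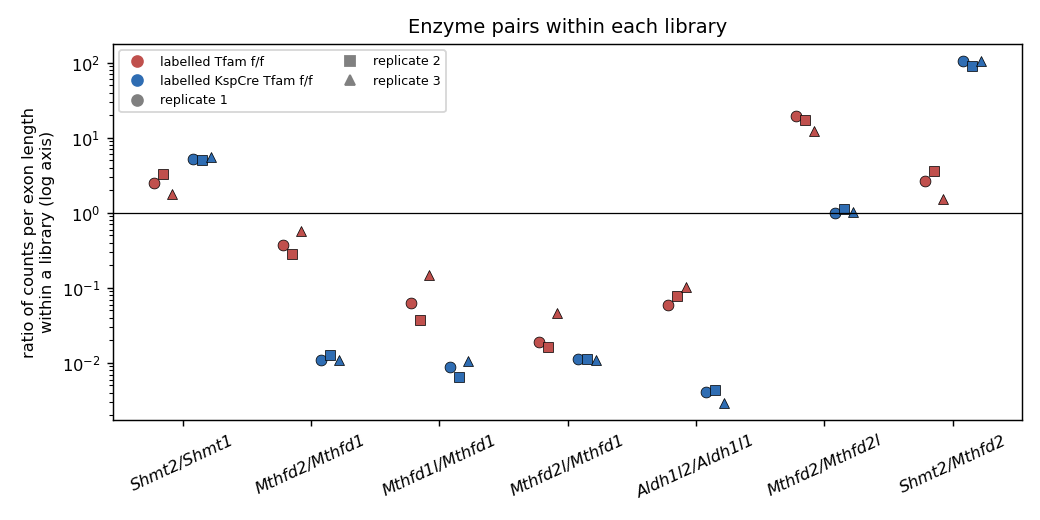
Ratio of 2 genes within each library, as counts per exon length on a log axis, with 1 point per library. Mthfd2 over Mthfd2l falls from between 12.3 and 19.6 under the label Tfam f/f to between 0.983 and 1.11 under KspCre Tfam f/f, and Shmt2 over Mthfd2 is 90.7 to 105 under the second label against 1.52 to 3.57 under the first.

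Shares within pairs of genes differed as well. Per exon length, Mthfd2 supplied 95.2%, 94.5% and 92.5% of the summed Mthfd2 and Mthfd2l level in the Tfam f/f-labelled libraries. It supplied 49.5%, 52.7% and 50.6% in the KspCre Tfam f/f-labelled ones, where both genes were thus at nearly equal, low levels. Shmt2 supplied 70.7% ± 6.05 of the summed Shmt2 and Shmt1 level under the first label and 84.1% ± 0.518 under the second (SD, n = 3 each). Aldh1l2 made up 7.37% ± 1.82 of Aldh1l2 plus Aldh1l1 against 0.373% ± 0.0743, so the cytosolic form stayed the more abundant transcript under both labels.

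Ordered by level per kilobase of exon (RPKM, normalized CPM divided by exon length), the genes changed places. Under the label Tfam f/f, Mthfd1 (45.5 ± 13.5), Shmt2 (43.7 ± 15.5) and Phgdh (38.5 ± 5.84) led and did not differ beyond their spread. Mthfd2 (17.2 ± 0.953) and Shmt1 (17.1 ± 2.06) came next at the same level, then Psat1 (13.3 ± 1.81), Aldh1l2 (6.11 ± 1.26), Mthfd1l (3.26 ± 1.26) and Psph (3.11 ± 0.413), with Mthfd2l last (1.09 ± 0.300). Under KspCre Tfam f/f the order began with Shmt2 (90.0 ± 4.73), Mthfd1 (78.1 ± 3.80), Shmt1 (17.0 ± 1.20) and Psat1 (5.79 ± 1.34). Phgdh followed at 3.36 ± 0.619 and Psph at 2.35 ± 0.121. The last 4 lay close together, with Mthfd2 at 0.902 ± 0.120, Mthfd2l at 0.865 ± 0.0593, Mthfd1l at 0.666 ± 0.140 and Aldh1l2 at 0.602 ± 0.140 RPKM (SD, n = 3 each).

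The Tfam f/f-labelled libraries were not alike, and the genes followed that spread in different ways. Summed proximal tubule markers were 5274, 8794 and 1903 normalized CPM in replicates 1, 2 and 3, and summed macrophage markers 281, 189 and 587. Shmt2, Mthfd1 and Aldh1l2 were lowest in replicate 3 and highest in replicate 2, the order of the proximal tubule markers. Summed thick ascending limb, distal tubule and collecting duct, and fibroblast markers had that order too. So did the library totals and the share of mitochondrially encoded mRNAs, so the order is not particular to proximal tubule. Between the labels, Shmt2 and Mthfd1 shared the direction of most of the proximal tubule markers, and Aldh1l2 went against it. Mthfd1l had its highest value in replicate 3 and its lowest in replicate 2. That was the order of the macrophage markers, and also of the summed lymphocyte and proliferation markers. Mthfd2 varied little, with a coefficient of variation of 5.54% over these libraries, against 35.4% for Shmt2 and 38.5% for Mthfd1l. Phgdh, Psat1 and Psph were each highest in replicate 1 and lowest in replicate 2. These are 3 libraries, and the part of these markers in the differences was not tested.

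**Figure D4:**
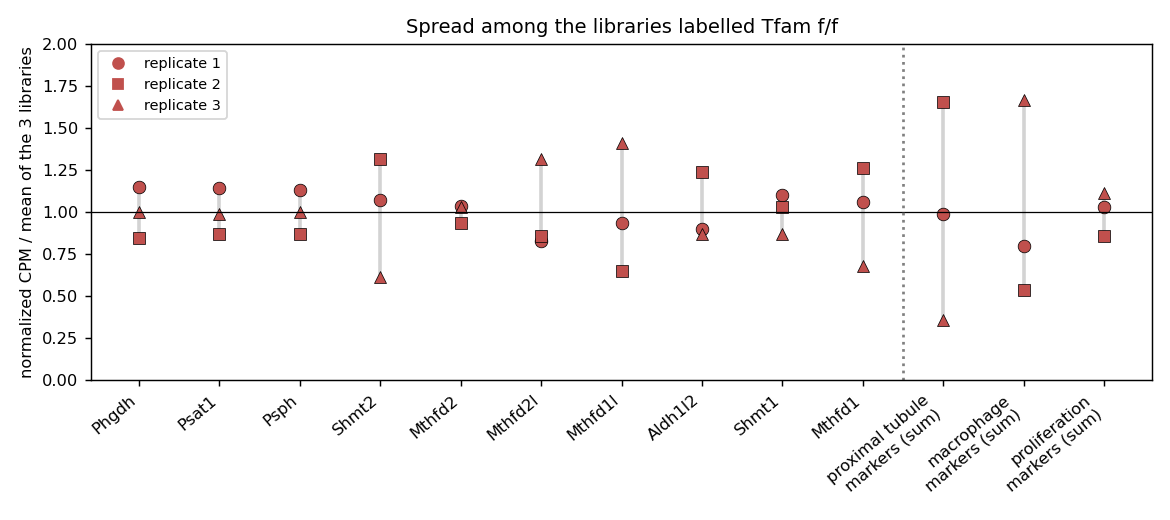
Normalized CPM of each gene in the Tfam f/f-labelled libraries, divided by the mean of the 3, with summed marker lists to the right of the dotted line; the marker shape gives the replicate. Mthfd2 lies close to 1 in every library, while Shmt2, Mthfd1, Aldh1l2, Shmt1 and the proximal tubule markers are lowest in replicate 3.

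Marker lists moved with the labels. Among all genes tested 24.9% were higher in the Tfam f/f-labelled libraries and 21.3% lower, beside which the counts of all marker lists stand. Of 10 proximal tubule markers 7 were lower in the Tfam f/f-labelled libraries, with a summed level of 1903 to 8794 normalized CPM against 15367 to 16812; the lowest p were those of Slc5a2 (3.61-fold), Slc22a6 (3.68-fold) and Aqp1 (2.17-fold). That count was 0 without Tfam f/f-labelled replicate 1 and 1 without any single KspCre Tfam f/f-labelled library. Macrophage markers were higher there for 8 of 9 genes, at 189 to 587 against 139 to 153, with Cd163 8.13-fold, Cd68 4.09-fold and Lyz2 5.87-fold; without Tfam f/f-labelled replicate 3, 1 of them was lower. Proliferation markers were higher for 8 of 8, at 167 to 217 against 71.5 to 80.0, with Mki67 6.77-fold, Top2a 5.47-fold and Cdk1 7.24-fold. None of these markers was at 0 in any library. In bulk tissue, fewer cells of a type and less RNA per cell cannot be told apart. Their part in the results for the 10 genes was not tested.

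The remaining marker lists were called in part. Of 5 thick ascending limb markers 3 were lower in the Tfam f/f-labelled libraries (Cldn16, Umod and Cldn10, 5 without Tfam f/f-labelled replicate 2), at a summed 2811 to 4000 normalized CPM against 7358 to 7543. Of 10 distal tubule and collecting duct markers 6 were lower, among them Slc4a1 (9.07-fold) and Foxi1 (1.85-fold), and Scnn1b (1.86-fold) and Scnn1g were higher. The latter count was 1 without Tfam f/f-labelled replicate 1 or KspCre Tfam f/f-labelled replicate 2 or 3. Of 6 tested lymphocyte markers Lck (4.84-fold) and Cd79b (1.96-fold) were higher, a count that was 4 without Tfam f/f-labelled replicate 2 and 1 without Tfam f/f-labelled replicate 1 or 3 or KspCre Tfam f/f-labelled replicate 1 or 2. With library totals alone as the scaling, all 6 lymphocyte markers and 5 of the 7 fibroblast markers were higher. Of these 7 fibroblast markers Col1a1 (2.72-fold), Col1a2 (1.81-fold) and Col3a1 (2.61-fold) were higher and 4 were not called. Without Tfam f/f-labelled replicate 2, 1 fibroblast marker was lower.

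Carriers and other enzymes of folate metabolism mostly shared the direction of Shmt2 and Mthfd1. Of 17 genes, 12 were lower in the Tfam f/f-labelled libraries, 2 were higher and 3 were not called, with a median log2 fold change of 0.82 against -0.03 for all genes. Among all genes tested 21.3% were lower there and 24.9% higher. Slc46a1, the proton-coupled folate transporter, was 2.09-fold lower there, and so was Sfxn1, which carries serine into mitochondria (2.09-fold). Aldh1l1 had 418, 432 and 236 normalized CPM against 685, 774 and 714 (2.00-fold lower, adjusted p = 0.0137 by edgeR). Slc25a32, the mitochondrial folate carrier, had 20.1, 28.4 and 16.3 normalized CPM against 32.9, 29.9 and 29.9 (adjusted p = 0.0575 by edgeR). Without KspCre Tfam f/f-labelled replicate 2 or 3 the count of 12 was 6 and 7, and the count of 2 was 1 without any single library of that label. Proximal tubule markers were lower in the same libraries.

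Most called genes of glycine and methionine metabolism were lower under the label Tfam f/f as well. The shares over all genes tested were 21.3% lower and 24.9% higher under that label. Of 9 tested genes of glycine cleavage and of serine or glycine breakdown, 5 were lower under the label Tfam f/f and 4 were not called. Gcsh, the carrier protein of the glycine cleavage system, was 2.24-fold lower, Glyat, glycine N-acyltransferase, 2.93-fold and Dld 1.77-fold. The count of 5 was 2 without Tfam f/f-labelled replicate 1 and 3 without KspCre Tfam f/f-labelled replicate 1, and 1 gene was higher without Tfam f/f-labelled replicate 3. With library totals alone as the scaling, 3 of the 9 were lower and 1 was higher. Of 14 tested genes of the methionine cycle and transsulfuration, 9 were lower, 3 higher (Mtrr, Nnmt and Mtap) and 2 not called. Mat2a, which makes S-adenosylmethionine, was 1.91-fold lower, Gnmt 2.79-fold and Cbs, the first enzyme of transsulfuration, 2.89-fold. The 3 higher became 1, 0 and 1 without KspCre Tfam f/f-labelled replicates 1, 2 and 3. Of 6 glycolytic and related genes around 3-phosphoglycerate, where serine synthesis branches off, Bpgm (1.43-fold lower) alone was called. That count was 2 without Tfam f/f-labelled replicate 1, and 1 gene was higher without Tfam f/f-labelled replicate 3. With library totals alone as the scaling, 0 of these 6 were lower and 2 were higher.

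**Figure D5:**
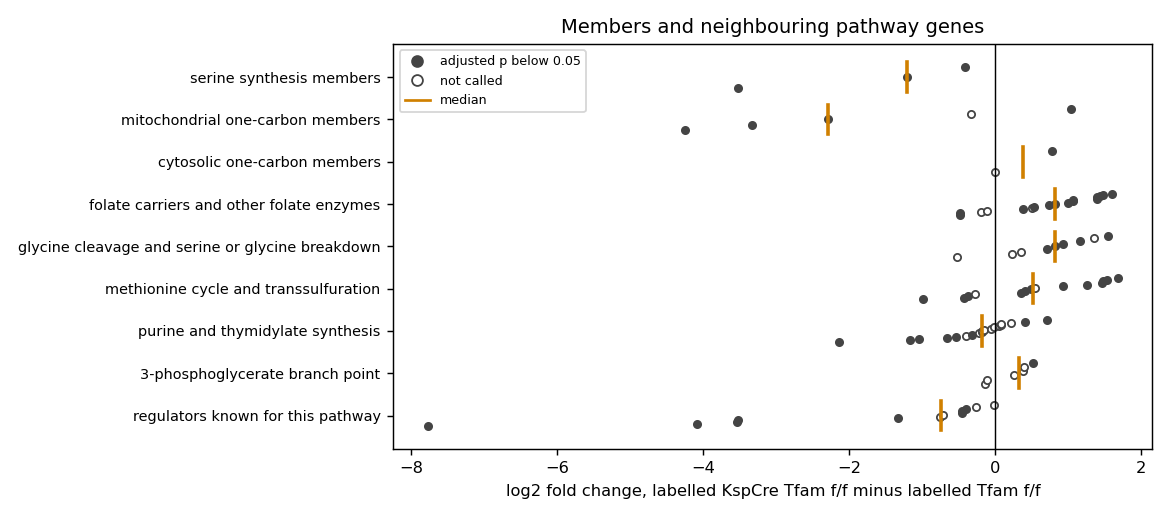
Log2 fold changes, labelled KspCre Tfam f/f minus labelled Tfam f/f, of the 10 genes and of neighbouring pathway lists, 1 point per tested gene, open where not called, with the list's median as a bar. Folate, glycine and methionine lists have medians of 0.82, 0.82 and 0.51, whereas serine synthesis and mitochondrial folate members have -1.20 and -2.29.

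Of 12 regulators known for this pathway, mostly transcription factors, 8 were higher in the Tfam f/f-labelled libraries and 4 were not called. Among all genes tested 24.9% were higher there. The list was chosen with earlier results of these data known, so its count is a description. Atf4 had 236, 196 and 232 normalized CPM against 92.7, 90.5 and 81.5 (2.51-fold, adjusted p = 0.000343 by edgeR). Atf5 was 17.0-fold, Ddit3 11.5-fold and Trib3, a feedback inhibitor of ATF4, 219-fold higher. Myc had 47.8, 28.6 and 81.7 against 4.67, 4.25 and 4.73. In the Tfam f/f-labelled libraries it kept the order of the summed macrophage, lymphocyte and proliferation markers, whose part in its difference was not tested. The count of 8 was 5 without KspCre Tfam f/f-labelled replicate 2.

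Among 11172 tested genes whose log2 CPM averaged at least 2, those whose log2 CPM followed Mthfd2 most closely over the 6 libraries were Dag1 (Pearson r = 0.9994), Atf5 (0.9991), Rin1 (0.9989), Knop1 (0.9987) and Fam110b (0.9986). Their differences ranged from 1.40-fold for Knop1 and 1.43-fold for Dag1 to 16.8-fold for Rin1 and 17.0-fold for Atf5. All were in the direction of Mthfd2, which follows from the choice by correlation and is no finding. Those most like Shmt1 included D2Wsu81e (0.9835), Tmem53 (0.9787), Ints1 (0.9639) and Arl3 (0.9609), none of which differed by more than 1.05-fold. The points are the same 6 libraries throughout, in 2 groups, so these values describe likeness and no more.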

How the data were processed

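Per the labels' protocols, RNA of whole kidneys was selected for poly A+ transcripts and made into strand-specific libraries with dUTP. The deposited values are raw counts per gene, 1 file per library, without normalization. HTSeq 0.11.0, STAR 2.4.1d, Trim Galore and FastQC, with build mm10, are named in the submitters' processing notes. The strand setting and annotation release are not given in these sources. Summary lines without a gene made up 16.0% to 20.4% of the sum of all lines and were left out. Of the 54146 identifiers, 54079 were found in GENCODE M21 without their version, from which positions and exon lengths came.

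The filter filterByExpr (minimum count 10, minimum total 15) left 17308 genes, which were scaled by TMM and compared with edgeR 4.0.16 in R 4.3.3 (glmQLFit robust, glmQLFTest), without a block. CPM are normalized by the same factors, and RPKM divide them by exon length. Ratios used a pseudocount of 0.5. Standard errors came from the F statistic. Replicates may be technical, so p-values measure the spread between these libraries. Alternatives used other scaling, filters, DESeq2 1.42.0, limma 3.58.1 voom, a replicate block, each library left out, and thinning, which was added after seeing the data. Members and lists were chosen with earlier results of these data known. The text names the 10 members, up to 3 called genes with the smallest p of each list (or 1 where none was called), some genes set in advance (Aldh1l1, Slc25a32, Sfxn1, Tyms, Atf4, Atf5, Myc, Tfam), and the 5 genes most correlated with Mthfd2 and with Shmt1, leaving out predicted genes. Some genes that this rule would name are not reported here. Scnn1g, 1 of 2 distal genes higher under the label Tfam f/f, and Mtrr, Nnmt and Mtap of the methionine list were named after their values were seen.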

Additional observations from a re-analysis of the deposited data

How the results depend on the processing

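Under 16 alternative settings the calls of Phgdh, Psat1, Shmt2, Mthfd2, Mthfd1l and Aldh1l2 were kept, as were the directions of the 7 ratios under 8 settings each. Of these genes Shmt2 came closest to losing its call, with adjusted p = 0.0478 by edgeR without Tfam f/f-labelled replicate 1. Its difference ranged from 1.56-fold to 2.48-fold over the settings. Psph lost its call with DESeq2 size factors in edgeR (log2 fold change -0.385), no filter (-0.394), voom (-0.388), the replicate block (-0.400) and thinning (-0.410), and ranged from -0.290 to -0.479 with a library left out. Shmt1, close to 0, changed sign with DESeq2 size factors in edgeR (0.0119), no filter (0.00234), DESeq2 (0.0118) and thinning (0.00866), and ranged from -0.104 to 0.0802 with a library left out. With library totals alone, which moved the median of all genes from -0.03 to -0.456, Shmt1 (-0.431) and Mthfd2l (-0.776) were called, Mthfd1 (0.371) was not, 1 member was lower under the label Tfam f/f, and 1680 and 8512 genes were higher and lower under KspCre Tfam f/f, against 3690 and 4310, so that 16.5% of calls were higher in place of 46.1%. Leaving out a library gave log2 fold changes of 0.561 to 1.003 for Mthfd1, 1 to 2 members lower under the label Tfam f/f, and 2276 to 4652 genes higher and 2822 to 4942 lower under KspCre Tfam f/f. Deviations from the group means correlated at -0.174, -0.0702 and -0.0708 between libraries of equal replicate number. No library correlated best with its own number. With 3 libraries per label, these values cannot decide whether equal numbers mark a shared litter or day. The replicate block gave 6813 calls, against 8000 without it, and changed no other member's call. Of 416 recomputed counts of the context lists, 48 moved by more than 1.5 times; without a filter 1 proximal tubule and 4 macrophage markers were called in place of 7 and 8. The lowest member count, 78, limits precision for Mthfd2 under the label KspCre Tfam f/f.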

Other observations

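Purine and deoxynucleotide genes, only some of which encode enzymes that take a folate-bound carbon unit, were called in both directions. Rrm2, Rrm1 and Impdh1, named below, do not encode such enzymes. Of 19 genes, 6 were higher in the Tfam f/f-labelled libraries, 2 were lower and 11 were not called, with a median log2 fold change of -0.17. Among all genes tested 24.9% were higher there and 21.3% lower, so nothing is read from these counts. Rrm2, a subunit of ribonucleotide reductase used in dividing cells, had 31.6, 22.3 and 27.9 normalized CPM in the Tfam f/f-labelled libraries against 6.71, 5.96 and 5.87 (4.40-fold higher), and Rrm1 was 2.05-fold higher. Impdh1, of guanine nucleotide synthesis, had 16.1, 16.0 and 15.8 against 6.31, 7.00 and 8.08 (2.24-fold higher). Tyms, thymidylate synthase, had 15.7, 12.98 and 13.1 normalized CPM against 14.2, 14.99 and 13.95 and was not called, although all 8 proliferation markers were higher in the same libraries. The count of 2 lower genes was 0 without Tfam f/f-labelled replicate 1 or KspCre Tfam f/f-labelled replicate 1, and 1 without KspCre Tfam f/f-labelled replicate 2 or 3. With library totals alone as the scaling, 15 of the 19 were higher and 0 lower.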
